A study of Mus musculus with 27 samples.

Results

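Collagen folding and processing enzymes were followed through postnatal life in the mouse heart by RNA-Seq. Of the 22855 genes in the count tables of cardiac fibroblasts and whole hearts, 9 were taken by symbol, and all 9 were found in both tables. They were the prolyl 4-hydroxylase alpha subunits P4ha1, P4ha2 and P4ha3, the lysyl hydroxylases Plod1, Plod2 and Plod3, the collagen chaperone Serpinh1, the procollagen C-proteinase Bmp1 and its enhancer Pcolce. Each was set beside Col1a1, which encodes the alpha 1 chain of type I collagen, of the same sample. The samples were from C57Bl/6 mice with no transgene or treatment named in the labels, of 5 ages, which were postnatal day 1 and then 4 weeks, 14 weeks, 1 year or 1.5 years. Cardiac fibroblasts had been sorted on PDGFRα from the nonmyocyte cells of the ventricles (n = 3, 3, 2, 2 and 2 samples at these ages), and whole hearts numbered 3 at each age. The paper's methods give 3 animals per age, and 3 sets of sorted fibroblasts per age that came from different hearts. Past 4 weeks of age, only 2 fibroblast samples per age were available here. The labels do not tie single samples to animals or pools, and every p value measures the spread between these samples.

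Procollagen chains are modified inside the endoplasmic reticulum before they wind into a triple helix. Prolyl 4-hydroxylases hydroxylate prolines, which makes the helix stable at body temperature, and lysyl hydroxylases modify lysines that later carry sugars and cross-links between molecules. The chaperone HSP47, encoded by Serpinh1, holds the finished helix on its way through the cell, and outside the cell BMP1 cuts the C-propeptide from fibrillar procollagens, a step that PCOLCE speeds up. The comparison by age asks whether this machinery follows the level of the collagen that it handles.

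Total counts were 54615898 to 76758831 per fibroblast sample and 46091271 to 67984404 per whole heart, of which mitochondrial genes took 1.74 to 9.18% and 10.8 to 34.5%. Levels are given as CPM, counts relative to the size of the library after TMM scaling, which sets the samples to a common level over most genes. The 8 fibroblast markers (Pdgfra, Dcn, Lum, Tcf21 and others) summed to 7082 to 8711 CPM in sorted fibroblasts at postnatal day 1 and to 41725 to 69367 CPM later, against 628 to 707 CPM in whole hearts at postnatal day 1 and 3095 CPM at most later. The 9 cardiomyocyte markers summed to 745 to 811 CPM in sorted fibroblasts at postnatal day 1 and to 16.3 to 188 CPM later, the 9 endothelial markers to 333 to 2041 CPM over all ages, and no marker of either list was at 0 in any age group. The 4-week heart replicate 2 had 83 of 8298 genes at less than 0.25 times the level of both other hearts of its age, where the other two had 0 and 3, and the 1.5-year heart replicate 3 had 35 of 8017, where the other two had 3 each. Xist was at most 0.570 CPM at 14 weeks and 1 year in both tissues and Ddx3y at most 0.397 CPM at 1.5 years, and both genes were above these levels in every sample of postnatal day 1 and 4 weeks. Sex and age therefore cannot be told apart in comparisons of 1.5 years with any younger age, or of 14 weeks or 1 year with postnatal day 1 or 4 weeks.

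All 9 genes are protein coding, and their positions are given on GRCm38 (mm10) from GENCODE. P4ha1 lies at chr10:59323296-59373304, P4ha2 at chr11:54100095-54131665, P4ha3 at chr7:100285520-100319699 and Plod2 at chr9:92542223-92608428, all on the plus strand. Plod3, also on the plus strand, lies at chr5:136987019-136996648 and shares 529 exonic bases with the antisense gene Znhit1. On the minus strand lie Plod1 at chr4:147909753-147936767, Serpinh1 at chr7:99345376-99353239, Pcolce at chr5:137605103-137613784 and Bmp1 at chr14:70474558-70520234. Plod2 shares 346 exonic bases with the antisense gene Gm38391, and Pcolce 112 with Fbxo24 on its own strand and 112 with the antisense gene Gm36266. The strand setting of the counting is not given in the sources used here, so reads from these overlaps cannot be told apart.

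The 250 bases before the RefSeq start (GRCm38.p6) are shown for P4ha1, which rose with age, for P4ha3, which fell, and for Serpinh1, which moved in both directions. P4ha2 also rose in both tissues by 4 weeks, and its window is given by counts of letters alone. Capitals mark GC boxes (GGGCGG) and the core of hypoxia response elements (ACGTG or GCGTG) on either strand, and each sequence reads 5′ to 3′ on the strand of its gene.
P4ha1 (chr10:59323046-59323295, plus strand): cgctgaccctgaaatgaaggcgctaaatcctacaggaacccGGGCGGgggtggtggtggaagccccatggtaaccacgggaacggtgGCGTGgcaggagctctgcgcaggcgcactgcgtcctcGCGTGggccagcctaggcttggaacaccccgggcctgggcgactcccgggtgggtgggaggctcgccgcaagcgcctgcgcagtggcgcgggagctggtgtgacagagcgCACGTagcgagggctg
P4ha3 (chr7:100285270-100285519, plus strand): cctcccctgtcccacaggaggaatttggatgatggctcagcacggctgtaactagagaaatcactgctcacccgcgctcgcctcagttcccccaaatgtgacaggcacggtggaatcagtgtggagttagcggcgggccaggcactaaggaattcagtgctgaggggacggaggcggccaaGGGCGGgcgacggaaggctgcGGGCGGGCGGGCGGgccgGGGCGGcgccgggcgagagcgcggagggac
Serpinh1 (chr7:99353240-99353489, minus strand): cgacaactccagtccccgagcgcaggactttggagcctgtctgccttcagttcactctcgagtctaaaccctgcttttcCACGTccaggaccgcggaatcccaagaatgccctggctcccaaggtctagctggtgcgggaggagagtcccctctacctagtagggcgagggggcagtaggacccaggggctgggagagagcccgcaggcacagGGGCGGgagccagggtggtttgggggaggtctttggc
The P4ha1 window held 1 GC box and 3 hypoxia cores, the P4ha3 window 5 GC boxes, of which 3 overlapped in one run, and no hypoxia core, and the Serpinh1 window 1 of each. Of 27025 mouse promoter windows of this length, 32.9% held a GC box and 38.6% a hypoxia core. The observed over expected CpG ratio was 0.817 for P4ha1, 0.846 for P4ha3 and 0.439 for Serpinh1, against a median of 0.378 over all windows. Among the other members, P4ha2 had 2 GC boxes and 3 hypoxia cores, Plod1 2 and 1, Plod3 0 and 4, and Pcolce 1 and 1, so that P4ha3 was the one of 7 members with a window whose letters held no hypoxia core. The windows of P4ha2 (chr11:54100674-54100923) and Pcolce (chr5:137611405-137611654) lie inside the GENCODE spans of these genes. They are therefore downstream of the outermost GENCODE start. Plod2 and Bmp1 were not analysed here for promoter sequence. Both spellings of the hypoxia core hold a CpG, and the 38.6% covers windows of any CpG content. No link between the core and the course of a member was tested. A match of letters is a description of the window and not a binding site.

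Between postnatal day 1 and 4 weeks, some members rose while Col1a1 fell, and others fell with it. In cardiac fibroblasts 5 members rose (P4ha1, P4ha2, Serpinh1, Pcolce and Bmp1) and 2 fell (P4ha3 and Plod2), while Col1a1 fell by 0.84 on the log2 scale (SE 0.20, edgeR quasi-likelihood test, Benjamini-Hochberg adjusted p = 0.0132). Plod1 and Plod3 did not pass the threshold of an adjusted p under 0.05. These 7 calls of 9 compare with 15.5% of the 18759 genes tested (9.28% higher and 6.2% lower), and the median log2 change of the 9 was 0.42. The samples of both ages did not overlap for the same number of members, 7 of 9, against 28.5% of all genes. In whole hearts 4 members rose over this interval (P4ha1, P4ha2, Plod1 and Serpinh1) and P4ha3 fell, 5 calls of 9 against 18.2% of 17995 genes (12.1% higher, 6.1% lower), with a median of 0.18. Here 5 of 9 members had no overlap between the ages, against 39% of all genes, and Col1a1 fell by 0.97 (SE 0.16, edgeR adjusted p = 0.000353). Over the same interval the 8 fibroblast markers of hearts went in sum from 628 to 707 CPM to 1935 to 2761 CPM, the 9 leukocyte markers from 63.4 to 84.9 CPM to 390.3 to 499 CPM and the 9 cardiomyocyte markers from 39868 to 47641 CPM to 68882 to 85233 CPM, and their part in the changes of hearts was not tested. A whole heart holds many cell types, and fewer cells of a type and less RNA per cell cannot be told apart in these bulk samples.

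After 4 weeks fewer members moved from one age to the next. From 4 to 14 weeks Serpinh1 and Bmp1 fell in fibroblasts (2 of 9, against 3.87% of genes changed and 2.08% lower), and Plod1, Serpinh1 and Bmp1 fell in whole hearts (3 of 9, against 1.61%, with 0.756% higher and 0.85% lower). From 14 weeks to 1 year Plod3, Serpinh1 and Pcolce rose in fibroblasts (3 of 9, against 1.78% changed and 1.31% higher), whereas P4ha1 and Serpinh1 fell in whole hearts (2 of 9, against 0.972%, with 0.389% higher and 0.583% lower). From 1 year to 1.5 years no member passed in fibroblasts by edgeR (0 of 9, against 0.24% of genes, with 0.096% higher and 0.144% lower), with 4 at an unadjusted p under 0.05 and 2 called by DESeq2, and Serpinh1 alone rose in whole hearts (1 of 9, against 2.66%, with 0.834% higher and 1.82% lower). At 1.5 years against 14 weeks Plod3 was higher in fibroblasts (1 of 9, against 2.72% changed and 1.91% higher), and in whole hearts Pcolce was higher and Plod1 lower (2 of 9, against 12.8%, with 4.91% higher and 7.86% lower). With offsets for transcript length and GC, no member was called in fibroblasts at 14 weeks against 4 weeks, or at 1 year or 1.5 years against 14 weeks. The same held in hearts at 1.5 years against 14 weeks. The split of all genes moved with the scaling, and with library size alone fibroblasts had 124 genes higher and 191 lower at 1 year and 214 and 366 at 1.5 years against 14 weeks. Hearts then had 64 higher and 432 lower at 14 weeks against 4 weeks, 57 and 30 at 1 year and 1288 and 751 at 1.5 years against 14 weeks, and 174 and 135 at 1.5 years against 1 year. With any of the 5 ages, 8 members changed in fibroblasts, all but Plod1 (adjusted p = 0.127), against 19.9% of genes, and 7 in whole hearts, all but Plod2 (0.117) and Plod3 (0.0739), against 34.3%.

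Over the whole span, 1.5 years against postnatal day 1, P4ha1 and Pcolce were higher and P4ha3 and Plod2 lower in fibroblasts, 4 calls of 9 against 16.3% of genes (9.86% higher and 6.46% lower). With scaling by library size alone the split of all genes was 1426 higher and 1935 lower. In whole hearts P4ha1 and P4ha2 were higher and P4ha3, Plod2 and Bmp1 lower, 5 calls of 9 against 31.8% (15.6% higher and 16.3% lower). The samples of both ages did not overlap for 5 of 9 members in either tissue, against 41.2% of genes in fibroblasts and 45.7% in hearts, so that in hearts the share of members was close to the background. All comparisons with postnatal day 1 share its samples, and those with 4 weeks share the 4-week samples. The plot of log2 fold changes gives every member at both intervals.

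**Figure D1:**
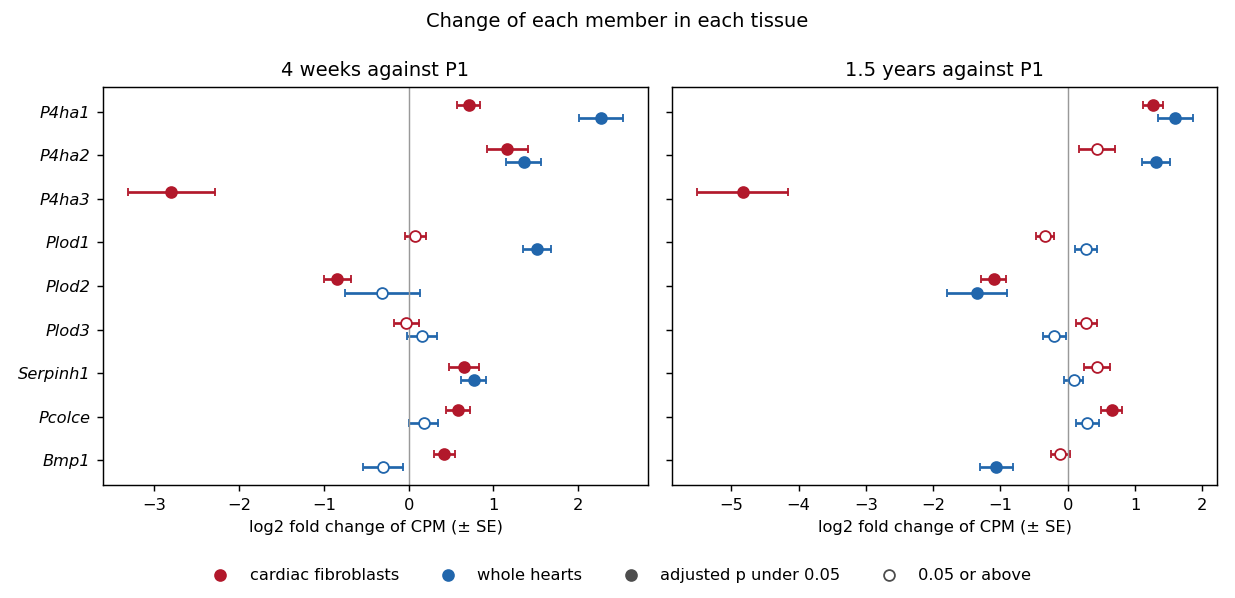
Log2 fold change of CPM (x axis, ± SE) of each member at 4 weeks (left) and 1.5 years (right) against postnatal day 1, in fibroblasts (red) and whole hearts (blue), with filled points for an edgeR adjusted p under 0.05. P4ha1 lies to the right of 0 in all 4 comparisons (0.71, 2.27, 1.26 and 1.60) and P4ha3 of fibroblasts far to the left (-2.80 and -4.83), and P4ha3 of hearts is left out because hearts reached 0 counts.

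P4ha1, the most abundant catalytic subunit of prolyl 4-hydroxylase per length of transcript in these fibroblasts, rose in both tissues. In fibroblasts it was at 116, 114 and 116 CPM at postnatal day 1, at 167, 231 and 168 CPM at 4 weeks, at 194 and 186 CPM at 14 weeks, at 264 and 253 CPM at 1 year and at 293 and 262 CPM at 1.5 years. All samples from 4 weeks on lay above all neonatal samples, by 1.63-fold at 4 weeks (log2 0.71, SE 0.13, edgeR adjusted p = 0.00294) and by 2.4-fold at 1.5 years (log2 1.26, SE 0.15, edgeR adjusted p = 5.97e-05). No step between neighbouring ages after 4 weeks passed the test (adjusted p of 0.256 or above). In whole hearts P4ha1 was at 13.0, 12.1 and 16.3 CPM at postnatal day 1 and at 68.2, 50.7 and 81.1 CPM at 4 weeks, a 4.83-fold rise (log2 2.27, SE 0.26, edgeR adjusted p = 1.02e-05). It was at 67.6, 62.3 and 81.2 CPM at 14 weeks, at 29.0, 36.0 and 31.4 CPM at 1 year and at 62.5, 33.2 and 29.9 CPM at 1.5 years. The 3 hearts at 1 year lay below those at 14 weeks (log2 -1.13, SE 0.25, edgeR adjusted p = 0.0433), a call that was lost when any 1 of 11 of the 15 hearts was left out (adjusted p of 0.0501 to 0.231) and with scaling by library size alone (0.0857). At 1.5 years one heart, replicate 1, was at 62.5 CPM and the other two were near the level of 1 year, and P4ha1 was then 3.03-fold higher than at postnatal day 1 (log2 1.60, SE 0.26, edgeR adjusted p = 0.000163). Against 14 weeks it was not called at 1.5 years (log2 -0.75, adjusted p = 0.0601), but it was without that replicate 1 (log2 -1.16, adjusted p = 0.00225).

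P4ha2, the second catalytic subunit, was at 28.8, 33.2 and 33.1 CPM in neonatal fibroblasts and at 69.8, 77.8 and 65.3 CPM at 4 weeks, a 2.24-fold rise (log2 1.16, SE 0.24, edgeR adjusted p = 0.00556). It was at 51.4 and 66.3 CPM at 14 weeks, at 46.1 and 51.5 CPM at 1 year and at 59.4 and 26.1 CPM at 1.5 years, 1 sample above and 1 below the neonatal range. The difference of 1.5 years from postnatal day 1 was not called (log2 0.43, SE 0.27, edgeR adjusted p = 0.309), and it was without the 1.5-year replicate 5 (log2 0.90, adjusted p = 0.0149). That library, with 26.1 CPM of P4ha2, had 7.83% of counts in mitochondrial genes, 1441 CPM of endothelial and 135 CPM of cardiomyocyte markers, against 2.20%, 333 CPM and 23.4 CPM in replicate 4, and their part in the lower level was not tested. Endothelial sums of 1674 and 1367 CPM at 14 weeks went with 51.4 and 66.3 CPM of P4ha2. In whole hearts the values were 17.4, 18.6 and 12.4 CPM at postnatal day 1, 42.3, 33.9 and 47.9 CPM at 4 weeks and 50.3, 57.8 and 58.9 CPM at 14 weeks. They were 32.2, 32.1 and 48.5 CPM at 1 year and 42.5, 41.7 and 35.7 CPM at 1.5 years, with no overlap between the first age and the others. P4ha2 of hearts was 2.56-fold higher at 4 weeks (log2 1.36, SE 0.21, edgeR adjusted p = 0.000177) and 2.48-fold higher at 1.5 years (log2 1.31, SE 0.21, edgeR adjusted p = 0.000149) than at postnatal day 1.

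P4ha3, the third catalytic subunit, went the other way. In fibroblasts it was at 62.6, 51.3 and 43.0 CPM at postnatal day 1, at 11.8, 8.53 and 2.18 CPM at 4 weeks, at 1.51 and 2.31 CPM at 14 weeks, at 5.15 and 5.08 CPM at 1 year and at 2.54 and 1.14 CPM at 1.5 years. The neonatal samples stood apart from all later ones, and the level was 6.96-fold lower at 4 weeks (log2 -2.80, SE 0.51, edgeR adjusted p = 0.00247) and 28.5-fold lower at 1.5 years (log2 -4.83, SE 0.68, edgeR adjusted p = 0.000289). From 4 to 14 weeks the change was not called (log2 -1.97, adjusted p = 0.0964), but it was without the 4-week replicate 3, the lowest of its age (log2 -2.41, adjusted p = 0.00851). That library had 45 of 8739 genes at over 4 times both others of its age. In whole hearts P4ha3 had 471, 1030 and 923 counts at postnatal day 1 and then 0, 29 and 1 at 4 weeks, 8, 1 and 1 at 14 weeks, 1, 2 and 1 at 1 year and 0, 0 and 0 at 1.5 years. The 29 counts came from replicate 2, the 4-week heart that stood apart. A count of 0 allows up to 3 counts per library, which puts the hearts of 1.5 years at least 169-fold lower than those of postnatal day 1 (edgeR adjusted p = 0.000534). The difference of 4 weeks from postnatal day 1 had an adjusted p of 0.013, and of 0.0558 without the neonatal replicate 2. The proliferation markers, 8 genes, also moved in this direction, from 466 to 610 CPM in sum in neonatal fibroblasts to 50.8 to 234 CPM later, and their part in the fall of P4ha3 was not tested.

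**Figure D2:**
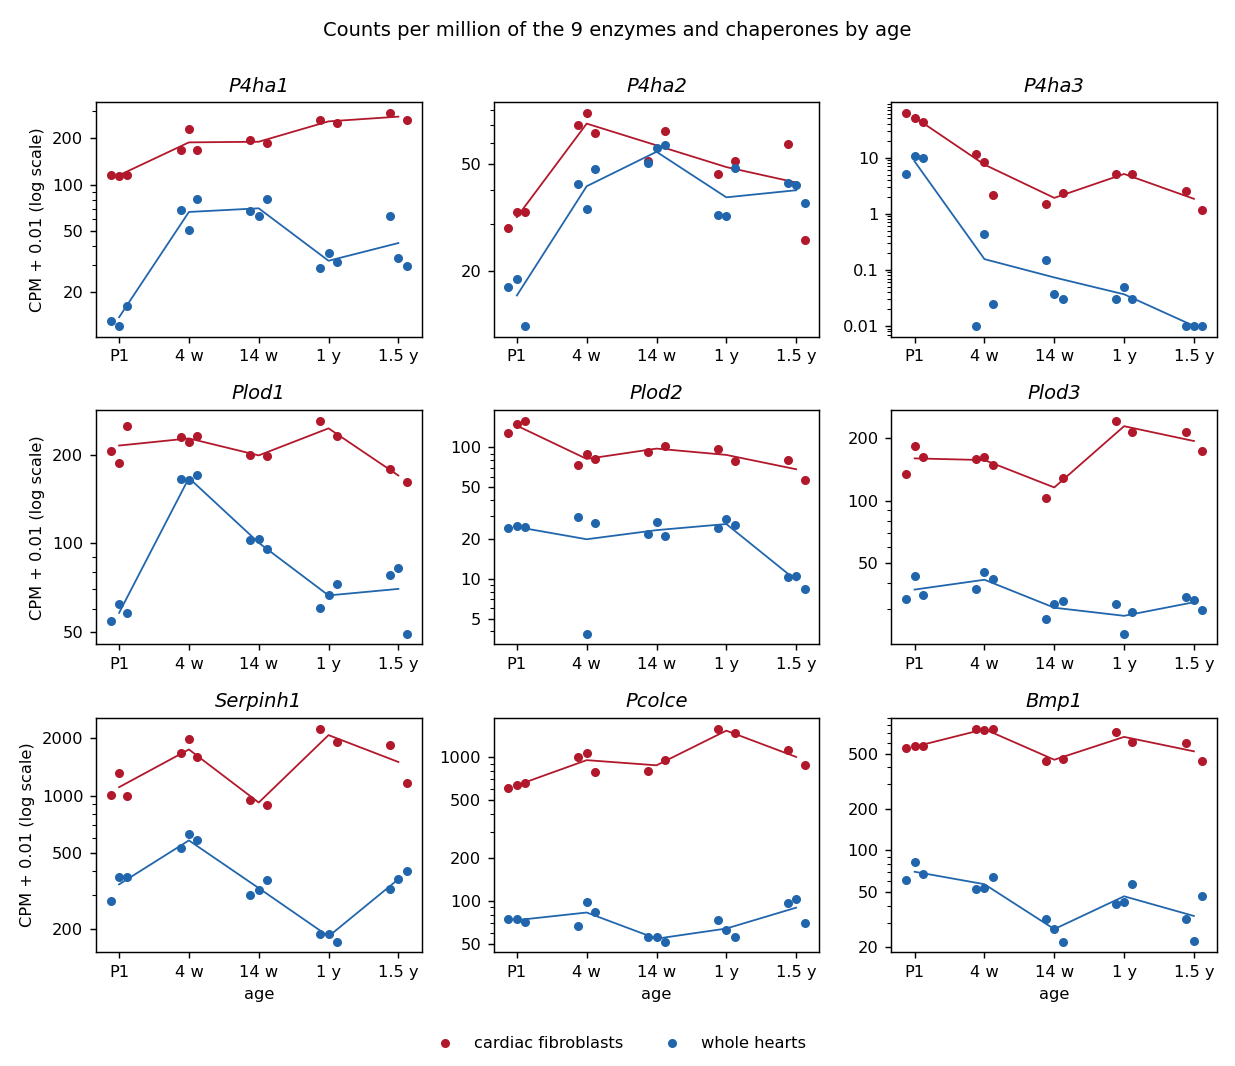
CPM of each member (y axis, log scale, with 0.01 added) by age (x axis) in fibroblasts (red) and whole hearts (blue), with 1 point per sample and lines through the group means. P4ha1 of fibroblasts climbs from 114 to 116 CPM to 262 to 293 CPM, and P4ha3 of hearts drops from 5.14 to 10.6 CPM to 0.

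Together these changes altered the make-up of the prolyl 4-hydroxylase subunits. In fibroblasts, with counts divided by transcript length, P4ha1 made up 47.1% ± 2.66 (SD, n = 3) of the P4ha counts at postnatal day 1, 63.8% ± 3.46 (n = 3) at 4 weeks and 82.9% ± 6.95 (n = 2) at 1.5 years. P4ha3 went from 35.7% ± 4.73 (n = 3) through 4.23% ± 2.86 to 0.889% ± 0.350. P4ha2 stood at 17.2% ± 2.19, 32.0% ± 2.18 and 16.2% ± 6.60 at these ages, and its first and last groups overlapped. In whole hearts P4ha1 held 28.1% ± 5.48 at postnatal day 1 and 54.6% ± 1.76 at 4 weeks, P4ha3 28.6% ± 8.04 and 0.251% ± 0.421, and P4ha2 43.3% ± 9.27 and 45.2% ± 1.37 (n = 3 each). P4ha2 was the larger share in hearts at 1.5 years, 57.0% ± 8.37 against 43.0% ± 8.37 for P4ha1, but in replicate 1 P4ha1 was the higher (15.4 against 13.9 CPM per kb), and without division by length the means were 41.9 CPM for P4ha1 and 40.0 CPM for P4ha2. Where samples did not overlap, the two-sided exact permutation test gave its smallest possible value, p = 0.1 for 3 against 3 samples and p = 0.2 for 3 against 2.

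**Figure D3:**
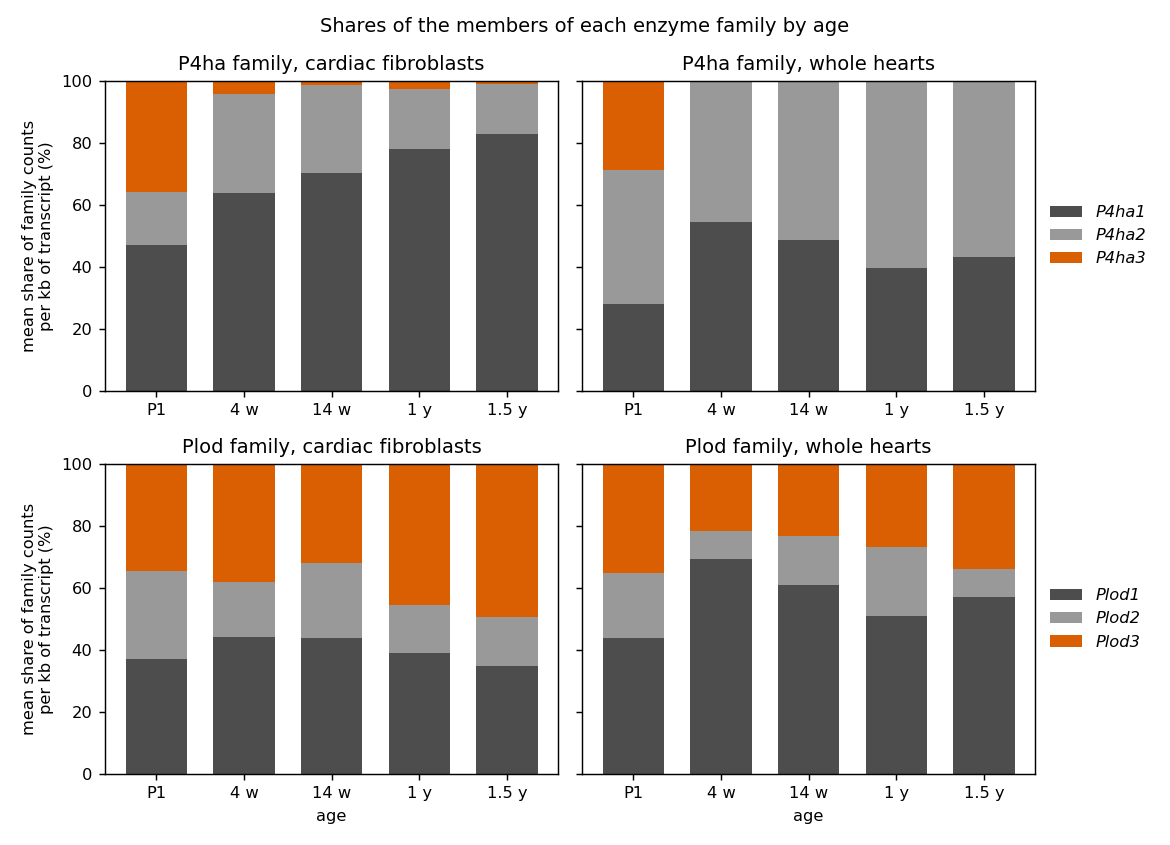
Mean share (y axis, percent) of each member in the summed counts per kb of transcript of the P4ha family (top) and the Plod family (bottom), by age (x axis), in fibroblasts (left) and whole hearts (right). The P4ha3 segment of fibroblasts shrinks from 35.7% to 0.889%, and the Plod1 segment of hearts is largest at 4 weeks, at 69.2%.

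The lysyl hydroxylases had 3 different courses. Plod1, which modifies lysines in the helical part of collagens, varied little in fibroblasts, with the lowest sample at 161 CPM and the highest at 260.1 CPM over 12 samples, and no comparison of ages was called there, although with scaling by library size alone its 1.5-year level was below the neonatal one (log2 -0.55, adjusted p = 0.0156). In whole hearts it was at 54.5, 62.3 and 58.0 CPM at postnatal day 1, at 165, 164 and 171 CPM at 4 weeks, at 103, 103 and 95.7 CPM at 14 weeks, at 60.6, 66.8 and 72.8 CPM at 1 year and at 78.4, 82.7 and 49.5 CPM at 1.5 years, where the lowest value was that of replicate 3, which stood apart and without which Plod1 was called higher at 1.5 years than in neonatal hearts (log2 0.47, edgeR adjusted p = 0.0175). The 4-week hearts stood above all others, 2.86-fold over postnatal day 1 (log2 1.52, SE 0.17, edgeR adjusted p = 7.17e-06). The fall from 4 to 14 weeks (log2 -0.73, SE 0.17, edgeR adjusted p = 0.0355) left no overlap, but its call was lost in 8 of 15 fits without 1 heart (0.0531 to 0.183), and the lower level at 1.5 years than at 14 weeks (log2 -0.52, SE 0.17, edgeR adjusted p = 0.0498) in 13 of 15 (0.0575 to 0.188) and with library size alone (0.256). The call of 1.5 years against 14 weeks was also lost with offsets for transcript length and GC. The 9 endothelial markers summed to 1138 to 1321 CPM in the 4-week hearts and to 613 to 906 CPM at the other ages, and their part in the Plod1 peak was not tested.

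Plod2, the hydroxylase of the telopeptides, from which stable cross-links are built, was lower after birth in fibroblasts. It was at 129, 151 and 159.6 CPM at postnatal day 1, at 74.0, 89.6 and 82.0 CPM at 4 weeks, at 93.0 and 103 CPM at 14 weeks, at 96.8 and 78.8 CPM at 1 year and at 80.0 and 56.6 CPM at 1.5 years. No later sample reached the neonatal ones, and the level was 1.79-fold lower at 4 weeks (log2 -0.84, SE 0.16, edgeR adjusted p = 0.00273) and 2.14-fold lower at 1.5 years (log2 -1.10, SE 0.18, edgeR adjusted p = 0.000925). In whole hearts it was at 24.5, 25.2 and 24.9 CPM at postnatal day 1 and at 29.7, 3.83 and 26.6 CPM at 4 weeks, where the value of 3.83 CPM came from the heart that stood apart. At 14 weeks and 1 year the 6 hearts lay between 21.3 and 28.4 CPM, and at 1.5 years the values of 10.4, 10.5 and 8.43 CPM were below all of them. Against postnatal day 1 the level at 1.5 years was 2.55-fold lower (log2 -1.35, SE 0.45, edgeR adjusted p = 0.0311), a call lost in 6 of 15 fits without 1 heart (0.0546 to 0.0885). Without the 4-week replicate 2, Plod2 was also lower at 1.5 years than at 1 year (log2 -1.38, edgeR adjusted p = 0.000841) and than at 14 weeks (log2 -1.22, edgeR adjusted p = 0.000595), neither of which was called with it (0.0950 and 0.0754).

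Plod3, which hydroxylates lysines and also adds the sugars to them, was at 135, 183 and 161 CPM in neonatal fibroblasts, at 158, 162 and 149 CPM at 4 weeks and at 103 and 128 CPM at 14 weeks. It then stood at 242 and 214 CPM at 1 year, 1.97-fold over 14 weeks (log2 0.98, SE 0.18, edgeR adjusted p = 0.0162), and at 213 and 173 CPM at 1.5 years (log2 0.74 over 14 weeks, SE 0.18, edgeR adjusted p = 0.0462). The first call was lost in 4 of 12 fits without 1 fibroblast library (the 14-week replicates 4 and 6 and the 1-year replicates 4 and 5, 0.0572 to 0.274) and the second in 9 of 12 (0.0582 to 0.483) and with library size alone (0.103). Both rises over 14 weeks also lost their calls with offsets for transcript length and GC. In whole hearts Plod3 ranged from 22.9 to 45.5 CPM over all ages, and none of its comparisons of ages was called, but with library size alone its 1.5-year level was below the neonatal one (log2 -0.80, adjusted p = 0.00344). In fibroblasts Plod3 made up 34.5% ± 3.90 (SD, n = 3) of the Plod counts per length at postnatal day 1 and 49.5% ± 0.569 (n = 2) at 1.5 years, while Plod2 went from 28.3% ± 0.602 to 15.6% ± 1.69, both without overlap. In whole hearts Plod1 went from 43.9% ± 0.833 to 69.2% ± 3.11 at 4 weeks and 57.1% ± 4.88 at 1.5 years (n = 3 each).

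Serpinh1, whose product HSP47 is a chaperone dedicated to collagens, had the most calls between neighbouring ages, 3 of 4 in fibroblasts and 4 of 4 in hearts. In fibroblasts it was at 1005, 1319 and 994 CPM at postnatal day 1, at 1672, 1976 and 1585 CPM at 4 weeks, at 946 and 890.3 CPM at 14 weeks, at 2247 and 1904 CPM at 1 year and at 1837 and 1162 CPM at 1.5 years. It was higher at 4 weeks than at postnatal day 1 (log2 0.66, SE 0.18, edgeR adjusted p = 0.0235), lower at 14 weeks than at 4 weeks (log2 -0.93, SE 0.20, edgeR adjusted p = 0.0253) and higher again at 1 year (log2 1.18, SE 0.22, edgeR adjusted p = 0.0188), each time with no overlap between neighbouring ages. These calls were lost in 4, 4 and 3 of 12 fits without 1 library (adjusted p of 0.0510 to 0.228), the libraries being neonatal replicates 1 and 3, 4-week replicates 1 and 2, both 14-week samples and the 1-year replicate 4. The fall to 14 weeks and the rise to 1 year also lost their calls with offsets for transcript length and GC. Col1a1 of the same cells ran 16979, 23824 and 22265 CPM, 12102, 12541 and 10501 CPM, 4362 and 4519 CPM, 9304 and 6684 CPM and 3887 and 2286 CPM at these ages, and its 14-week samples also lay below those of 4 weeks and 1 year. The 14-week fibroblasts also had 1367 to 1674 CPM of the endothelial markers, against 534 to 725 CPM at 1 year. At 4 weeks these markers were at 615 to 2041 CPM, the highest in replicate 3, which had 1585 CPM of Serpinh1. From 4 to 14 weeks the leukocyte markers went in sum from 308 to 510.2 CPM to 39.6 to 55.5 CPM, and the 8 mural cell markers were at 154 to 229 CPM and then at 470.2 to 604 CPM. The part of these markers in the lower level at 14 weeks was not tested.

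In whole hearts Serpinh1 was at 278, 372 and 374 CPM at postnatal day 1, at 530.3, 628 and 585 CPM at 4 weeks, at 299, 318 and 362 CPM at 14 weeks, at 187, 188 and 171 CPM at 1 year and at 324, 362 and 404 CPM at 1.5 years. The 4-week hearts were above and the 1-year hearts below all others. The rise to 4 weeks was 1.7-fold (log2 0.77, SE 0.14, edgeR adjusted p = 0.00111), followed by falls to 14 weeks (log2 -0.83, SE 0.14, edgeR adjusted p = 0.00715) and to 1 year (log2 -0.84, SE 0.14, edgeR adjusted p = 0.0150) and a 2-fold rise to 1.5 years (log2 1.00, SE 0.14, edgeR adjusted p = 0.00274). The fall to 14 weeks lost its call without the 14-week replicates 1 or 2 (0.0555 and 0.0559) and the fall to 1 year in 5 of 15 fits without 1 heart (0.0505 to 0.126). The hearts at 1.5 years overlapped those at postnatal day 1 (log2 0.09, adjusted p = 0.682). Col1a1 of the same hearts fell to 4 weeks (log2 -0.97), where Serpinh1 rose. It fell again to 14 weeks (log2 -1.54, SE 0.16, edgeR adjusted p = 0.000143), as Serpinh1 did. Its change to 1 year was not called (log2 -0.40, edgeR adjusted p = 0.264). To 1.5 years Col1a1 rose with Serpinh1 (log2 0.79, SE 0.16, edgeR adjusted p = 0.0212). With scaling by library size alone, under which the median gene of hearts shifted by -0.60 at 4 weeks and -0.75 at 1.5 years against postnatal day 1 (-0.09 and -0.15 with TMM), the rise of Serpinh1 to 4 weeks was not called (log2 0.26, adjusted p = 0.232) and its level at 1.5 years was lower than at postnatal day 1 (log2 -0.51, adjusted p = 0.0140). Under that scaling 980 genes of hearts were higher and 3795 lower at 4 weeks, and 1377 higher and 5944 lower at 1.5 years.

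Bmp1, the protease that removes the C-propeptide, was at 548, 566 and 570.1 CPM in neonatal fibroblasts, at 758, 737 and 759 CPM at 4 weeks and at 444 and 460.1 CPM at 14 weeks. The rise (log2 0.42, SE 0.12, edgeR adjusted p = 0.0352) and the fall (log2 -0.73, SE 0.14, edgeR adjusted p = 0.0136) left no overlap. The call of the rise was lost in 8 of 12 fits without 1 library (0.0583 to 0.0851) and with library size alone (0.0810), and that of the fall without either 14-week sample (0.131 and 0.169). With offsets for transcript length and GC the fall was not called either. At 1 year (715 and 606 CPM) and 1.5 years (595 and 445 CPM) the fibroblasts did not differ from 14 weeks past the threshold. In whole hearts Bmp1 was at 61.0, 81.9 and 67.7 CPM at postnatal day 1, at 52.4, 53.9 and 64.8 CPM at 4 weeks, at 31.9, 27.2 and 22.0 CPM at 14 weeks, at 40.9, 42.3 and 56.8 CPM at 1 year and at 31.8, 22.1 and 47.0 CPM at 1.5 years, the highest being replicate 3. The fall from 4 to 14 weeks (log2 -1.08, SE 0.24, edgeR adjusted p = 0.0332) lost its call in 5 of 15 fits without 1 heart (0.0540 to 0.192), and hearts at 1.5 years lay below all neonatal hearts (2.09-fold, log2 -1.06, SE 0.24, edgeR adjusted p = 0.00286).

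Pcolce, the enhancer of that protease, was at 613, 637 and 664 CPM in neonatal fibroblasts, at 1011, 1062 and 790.1 CPM at 4 weeks, at 805 and 952 CPM at 14 weeks, at 1584 and 1479 CPM at 1 year and at 1125 and 884 CPM at 1.5 years. Every later sample was above the neonatal ones, 1.5-fold at 4 weeks (log2 0.58, SE 0.14, edgeR adjusted p = 0.0132) and 1.58-fold at 1.5 years (log2 0.66, SE 0.15, edgeR adjusted p = 0.0107), and the 1-year samples were the highest (log2 0.80 over 14 weeks, SE 0.17, edgeR adjusted p = 0.0364). The first of these calls was lost without the 4-week replicates 1 or 2 (0.0512 and 0.0561), the second without the 1.5-year replicate 4 (log2 0.47, adjusted p = 0.133) and with library size alone (0.0691), and the third in 7 of 12 fits without 1 library (0.0502 to 0.415) and with library size alone (0.0993). In whole hearts Pcolce was at 71.4 to 74.5 CPM at postnatal day 1 and at 66.9 to 97.9 CPM at 4 weeks, with overlap. It was at 55.7, 55.8 and 52.2 CPM at 14 weeks and at 97.0, 102 and 69.8 CPM at 1.5 years, the lowest of them from the replicate 3 that stood apart (log2 0.72, SE 0.17, edgeR adjusted p = 0.0126), a call lost without the 14-week replicate 3 or the 1.5-year replicate 2 (0.0550 and 0.0608). Offsets for transcript length and GC also removed this call.

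Set beside Col1a1 of the same sample, most members gained, as did most genes. Members were counted per 1000 counts of Col1a1, and the test used the Col1a1 count in place of the library size. In fibroblasts 7 members were higher and P4ha3 lower at 4 weeks than at postnatal day 1 (8 of 9), against 27.5% of all genes (26.5% higher, 1.07% lower), with a median of 1.25 for the members and 0.82 for all genes. From 4 to 14 weeks 7 members were higher (42.8% of genes, 42.6% higher, medians 1.13 and 1.37), the exceptions being P4ha3 and Serpinh1 (log2 0.48, adjusted p = 0.111). At 1.5 years against postnatal day 1 all 9 were called, 8 higher and P4ha3 lower, against 65.6% of genes (65.1% higher, 0.496% lower), with medians of 3.10 for members and 2.82 for all genes. Since Col1a1 itself fell, the median gene rose relative to it almost as far, and the count of calls over the whole span was not far above the background. In whole hearts 6 members were higher at 4 weeks (38.7% of genes, 37.3% higher and 1.34% lower, medians 1.12 and 0.84), 7 from 4 to 14 weeks (58.4%, 58.3% higher, medians 0.98 and 1.55, so that the typical gene gained more), and at 1.5 years 7 were higher and P4ha3 lower than at postnatal day 1 (61.7%, 59.9% higher and 1.86% lower, medians 2.20 and 1.91), where Plod2 was not called (log2 0.73, adjusted p = 0.183). With Col3a1, the chain of type III collagen, in place of Col1a1, only 3 members were called in fibroblasts at 4 weeks.

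P4ha1 had the largest gain on Col1a1 among the 9 in fibroblasts at 1.5 years against postnatal day 1, whereas at 4 weeks P4ha2 gained more (log2 1.99 against 1.52) and from 4 to 14 weeks Plod2 did (1.65 against 1.42). In fibroblasts P4ha1 had 6.83, 4.80 and 5.21 counts per 1000 of Col1a1 at postnatal day 1, 13.8, 18.4 and 16.0 at 4 weeks, 44.5 and 41.3 at 14 weeks, 28.3 and 37.8 at 1 year and 75.3 and 114 at 1.5 years, which was 16.9-fold over postnatal day 1 (log2 4.08, SE 0.28, edgeR adjusted p = 4.66e-08). Pcolce went from 36.1, 26.7 and 29.8 to 289.6 and 387 per 1000 (log2 3.45, SE 0.26, edgeR adjusted p = 7.17e-08) and Serpinh1 from 59.2, 55.4 and 44.6 to 473 and 508 (9.24-fold, log2 3.21, SE 0.24, edgeR adjusted p = 7.44e-08). P4ha2 gained 8.75-fold, Plod3 8.58-fold, Bmp1 6.39-fold and Plod1 5.59-fold over this span. Plod2 and Col1a1 had the same ratio within its spread at postnatal day 1 and 4 weeks, at 7.58, 6.35 and 7.17 and then 6.11, 7.14 and 7.81 per 1000 (adjusted p = 1), and rose to 21.3 and 22.8 at 14 weeks. P4ha3 was the member that lost against Col1a1, from 3.69, 2.15 and 1.93 to 0.652 and 0.498 per 1000 (4.5-fold lower, log2 -2.17, SE 0.69, edgeR adjusted p = 0.0126), a call lost without the neonatal replicate 1 (0.0556) or the 1.5-year replicate 5 (0.0666).

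In whole hearts the counts of Serpinh1 passed those of Col1a1 after birth, from 602, 553 and 685 per 1000 at postnatal day 1 to 1990.2, 2161 and 1938 at 4 weeks. They were at 2939, 4014 and 3159 at 14 weeks, 2320, 2549 and 2433 at 1 year and 2552, 2572 and 3326 at 1.5 years. P4ha1 rose from 28.2, 18.0 and 29.8 to 256, 175 and 268 per 1000 at 4 weeks (9.2-fold, log2 3.20, SE 0.31, edgeR adjusted p = 3.54e-07). It was highest at 14 weeks, at 665, 785 and 709. Lower values followed, 360, 487 and 446 at 1 year and 491, 236 and 246 at 1.5 years. Per kb of transcript, Serpinh1 of hearts was at 150 ± 24.1 CPM (SD, n = 3) at postnatal day 1 and the highest of the 9 then and at 1.5 years, and Col1a1 was at 94.5 CPM then and at 21.9 CPM at 1.5 years. In fibroblasts Col1a1 stood at 3545 CPM per kb at postnatal day 1, far over Serpinh1 at 486 ± 81.3 CPM per kb (n = 3), and at 1.5 years at 520 ± 191 against 659 ± 210 CPM per kb (n = 2), with Serpinh1 the higher in each of the 2 libraries (808 against 655 and 511 against 386). After Serpinh1, neonatal fibroblasts had the order Pcolce (248 CPM per kb), Bmp1 (105), Plod1 (52.3), Plod3 (48.7), Plod2, P4ha1, P4ha3 and P4ha2 (10.4), and at 1.5 years P4ha1 (68.5) had moved up to a place behind Bmp1 (96.9) and P4ha3 was last (0.764).

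**Figure D4:**
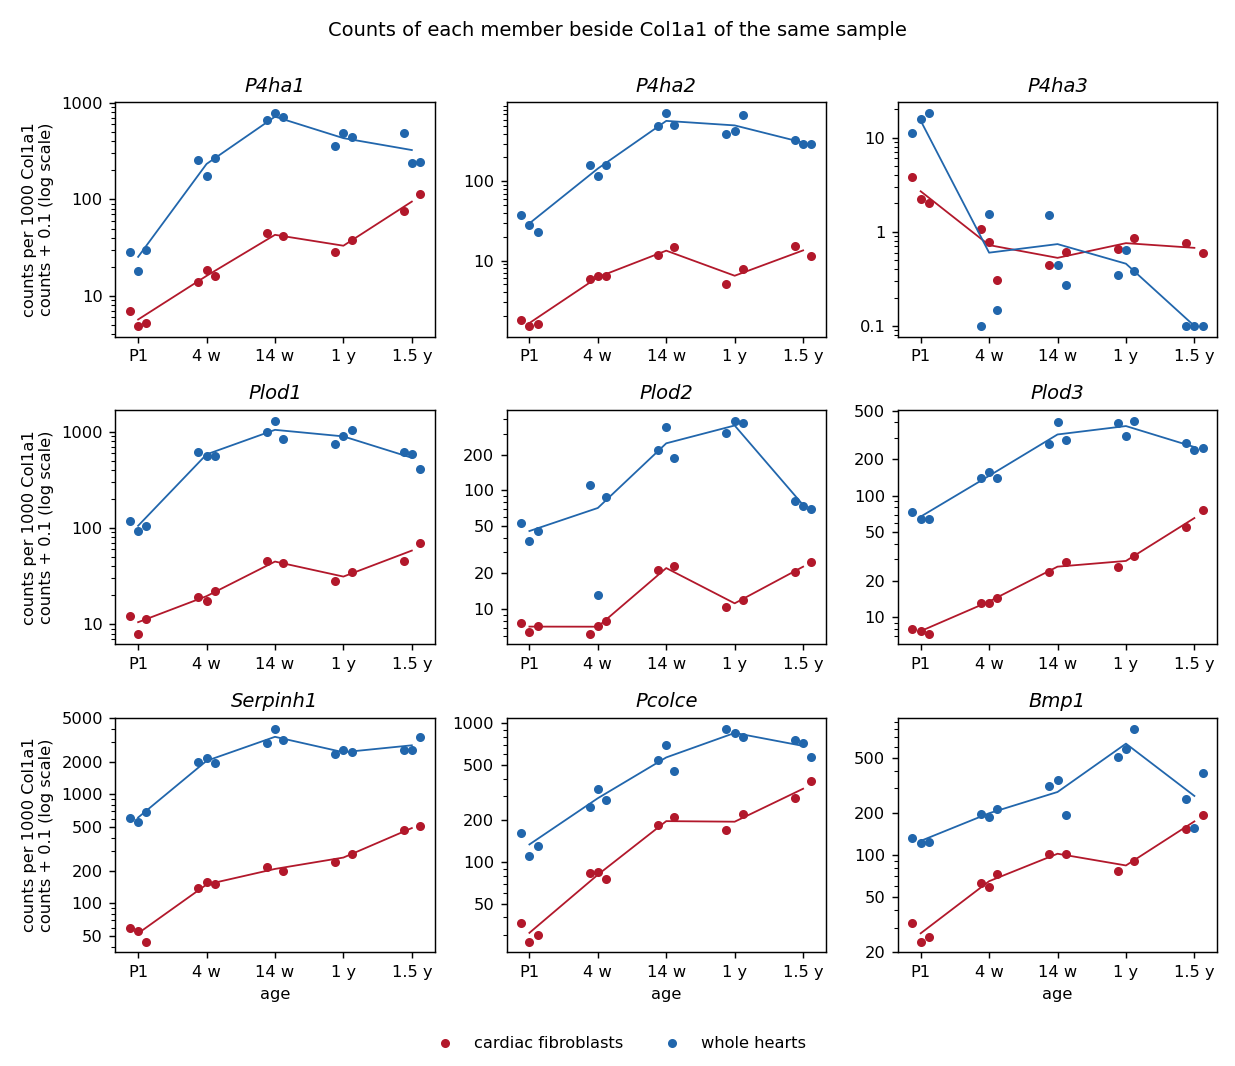
Counts of each member per 1000 counts of Col1a1 of the same sample (y axis, log scale, with 0.1 added) by age (x axis) in fibroblasts (red) and whole hearts (blue), with 1 point per sample and lines through the group means. Of the 9 members 8 end above their neonatal level in both tissues, and P4ha3 ends below it, at 0.652 and 0.498 in fibroblasts and at 0 in hearts.

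Most members were more abundant in sorted fibroblasts than in whole hearts. At postnatal day 1 all 9 were higher in fibroblasts, against 32.3% of 20650 genes that differed (13.6% higher), from 1.54-fold for P4ha2 to 6.83-fold for Pcolce (log2 2.77, SE 0.18, edgeR adjusted p = 2.2e-11). The calls of P4ha2 and P4ha3 (adjusted p = 0.0469 and 0.0461) were lost in 5 and 6 of 6 fits without 1 neonatal sample (0.0529 to 0.194), and that of P4ha2 also with library size alone (0.0987). At 1.5 years 8 of 9 were higher, against 38.9% of genes that differed (21% higher), among which Bmp1 was 11.9-fold higher (log2 3.58, SE 0.24, edgeR adjusted p = 2.28e-11), while P4ha2 did not differ past the threshold (log2 -0.27, SE 0.27, adjusted p = 0.452). Relative to Col1a1, 8 members had fewer counts per Col1a1 count in fibroblasts than in hearts at postnatal day 1, against 78.6% of genes, from 4.34-fold for Pcolce to 19.2-fold for P4ha2, and P4ha3 was not called (adjusted p = 0.104). The count was near the background, and the median of the members (log2 -2.69) lay above that of all genes (-5.03). At 1.5 years 7 members were lower and P4ha3, listed at 0 in hearts, was higher, 8 calls of 9 against 62.2% of genes, and Bmp1 was not called (log2 -0.61, adjusted p = 0.0856), with medians of -1.77 for members and -3.73 for all genes. The study describes the hearts as those from which fibroblasts were taken, so samples of both tissues may share animals, which the labels do not give and which these tests do not take into account.

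The change with age itself differed between the tissues for few members. From postnatal day 1 to 4 weeks P4ha1 and Plod1 rose less in fibroblasts than in hearts (2 of 9, against 7.14% of genes), by 1.57 for P4ha1 (fibroblast minus heart, log2 -1.57, SE 0.31, edgeR interaction, adjusted p = 0.00234) and by 1.44 for Plod1 (log2 -1.44, SE 0.22, adjusted p = 0.000138). Between birth and 1.5 years Bmp1 and P4ha3 differed (2 of 9, against 13.6% of genes). All genes split into 657 with a higher and 818 with a lower fibroblast change at 4 weeks and 1627 and 1191 at 1.5 years, and with library size alone into 1668 and 443 and into 3051 and 677. For Bmp1 the fibroblast change exceeded that of hearts by 0.92 (SE 0.31, edgeR interaction, adjusted p = 0.0492), which was lost in 8 of 11 fits without 1 sample (0.0678 to 0.246). For P4ha3 the difference rests on hearts with 0 counts and no size is given (adjusted p = 0.0177). Its call was lost without the fibroblast 1.5-year replicate 4 (0.0576) or the heart 1.5-year replicate 3 (0.0507).

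The genes most like each member were ranked by Pearson correlation of log2 CPM over the 12 fibroblast samples among 8819 genes and over the 15 hearts among 8484, as a description, since samples of 5 ages share their age differences. In fibroblasts the closest was Ccni for P4ha1 (0.98), followed by Ctsb (0.98) and Hexa (0.97), R3hcc1 for P4ha3 (0.97), Aspn for Plod2 (0.96), Fbln2 for Pcolce (0.95) and Smdt1 for Serpinh1 (0.95). For Col1a1 the closest were Col1a2 and Col5a1 (0.99 each) and Col3a1 (0.97), and no member was among its nearest 3. In hearts the closest were Hsph1 for P4ha1 (0.95), Pygl for P4ha3 (0.95), Kdr for Plod1 (0.95), Trp53i11 for Serpinh1 (0.95), Cspg4 for Bmp1 (0.90) and Hbb-bt for Pcolce (0.90), the last a haemoglobin chain of red blood cells.

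Other genes of the pathway did not move as a block. Of 25 further collagen synthesis genes tested, 4 rose and 5 fell in fibroblasts at 4 weeks against postnatal day 1 (median log2 -0.10, 9 calls of 25 against 15.5% of all genes), and 3 were higher and 6 lower at 1.5 years (median -0.13, 9 calls of 25 against 16.3%). Pcolce2, another enhancer of the C-proteinase, went from 5.45 ± 5.08 to 334 ± 8.09 CPM (SD, n = 3 each) in fibroblasts by 4 weeks (log2 5.94). Colgalt2, which adds galactose to hydroxylysine, rose by 1.56 on the log2 scale, and Adamts2, the N-proteinase, by 0.93. Falling members included Adamts14, another N-proteinase (188 ± 39.5 to 47.1 ± 7.56 CPM, n = 3 each), the prolyl 3-hydroxylase P3h2 (-1.76), the prolyl isomerase Fkbp10 (-0.83) and the cyclophilin Ppib (-0.62). In whole hearts 4 of the 25 rose and 2 fell at 4 weeks (median 0.01, against 18.2% of all genes called, 12.1% higher and 6.1% lower). Of 8 fibrillar collagen genes, 1 rose and 3 fell in fibroblasts at 4 weeks (against 15.5% of all genes called). From 4 to 14 weeks 7 fell (median -1.42, against 3.87% called and 2.08% lower). In hearts 1 rose and 3 fell at 4 weeks (against 18.2%), and 5 fell from 4 to 14 weeks (against 1.61% called and 0.85% lower).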

How the data were processed

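PolyA RNA of sorted PDGFRα cardiac fibroblasts (12 samples) and whole hearts (15 samples) had been sequenced, and per the labels the reads were aligned to mm10 with STAR 2.5.3a. The authors deposited raw counts per gene, not normalized, in 1 table for each tissue, and the annotation and strand setting of the counting are not given in the sources used here. Groups followed the labelled tissue and age, and 1.5 years stands for the 18-month label. All 24 pairs of replicates held different values.

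Counts were analysed in R 4.3.3 with edgeR 4.0.16 (filterByExpr, TMM scaling, quasi-likelihood F tests, Benjamini-Hochberg adjustment over all genes tested, threshold 0.05), in 1 fit for each tissue with age as the only term. Changes relative to Col1a1 used its count as the library size, and differences between tissues came from a fit of all 27 samples. Depth is the total count per sample, and the floor of 3 counts covers counting error only. Shares within a family used the longest GENCODE transcript and exact permutation tests. The fits were also run on simulated counts in which few genes changed. That setting does not cover shifts over as many genes as were seen between ages here. Of 22855 gene symbols, 21796 matched the GENCODE annotation.

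The members and lists were chosen with earlier results of these data known. The text names all 9 members, Col1a1, the 3 genes most like each by Pearson correlation among genes averaging over 10 CPM, and genes of the lists for collagen synthesis, fibrillar collagens, chaperones of the endoplasmic reticulum, hypoxia-induced genes and cell type markers. Alternatives were DESeq2 1.42.0, median-of-ratios or library size scaling, other filters (none, or at least 10 counts in every sample), no mitochondrial genes, offsets for transcript length and GC, only the ages compared, a 2-fold minimum, Col1a2 or Col3a1 as the reference, a block for the replicate number, and leaving out each sample in turn. The labels used here do not give sex, and Xist and Ddx3y served only as a check of it.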

Additional observations from a re-analysis of the deposited data

Results flagged for a closer look

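The changes of 4 members differed between fibroblasts and whole hearts by a test of the difference itself, the tissue by age interaction of edgeR over all 27 samples. From postnatal day 1 to 4 weeks the log2 change of P4ha1 was -1.57 in fibroblasts minus hearts (adjusted p = 0.00234), as it rose in both tissues but further in hearts. The corresponding value of Plod1 was -1.44 (adjusted p = 0.000138), with a rise in hearts alone past the threshold. Between birth and 1.5 years the difference of Bmp1 was 0.92 (adjusted p = 0.0492), with a lower level in hearts and overlap between the ages in fibroblasts. That of P4ha3 came out at 7.50 (adjusted p = 0.0177), a value set by hearts with 0 counts at 1.5 years and so no bound on the size of the difference. With scaling by library size alone 4 members differed at each interval, Pcolce and Bmp1 joining at 4 weeks and Plod3 and Serpinh1 at 1.5 years. With 2 or 3 samples in every group, no outlier test of single samples was run.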

How the results depend on the processing

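Counts of members called moved by over 1.5 times from the reported ones under these settings. With a 2-fold minimum they were 2 for fibroblasts at 4 weeks against postnatal day 1, 0 at 14 weeks against 4 weeks, 1 at 1 year against 14 weeks and 0 at 1.5 years against 14 weeks, and for hearts 1, 1, 0 and 0 at 14 weeks against 4 weeks, 1 year against 14 weeks, 1.5 years against 1 year and 1.5 years against 14 weeks. With offsets for length and GC they were 0 for fibroblasts at 14 weeks against 4 weeks, 1 year against 14 weeks and 1.5 years against 14 weeks, and 0 for hearts at 1.5 years against 14 weeks, also with the replicate block. By DESeq2 they were 2 and 3 for fibroblasts at 1.5 years against 1 year and 14 weeks, and 4, 3 and 4 for hearts at 1 year against 14 weeks and 1.5 years against 1 year and 14 weeks. With only the ages compared they were 5 and 0 for fibroblasts at 1 year and 1.5 years against 14 weeks and 4 for hearts at 1 year against 14 weeks. With library size alone they were 0 for fibroblasts and 1 for hearts at 1.5 years against 14 weeks, 1 for hearts at 1 year against 14 weeks, and 4 for the difference between tissues at either interval. For hearts at 1.5 years against 14 weeks the count was 1 with median-of-ratios scaling, at least 10 counts, no mitochondrial genes or no filter. Relative to Col3a1, 3 members were called in fibroblasts at 4 weeks against postnatal day 1. The causes were not tested. Deviations from the mean of each age had same-number correlations of -0.032 to 0.036 in fibroblasts and -0.062 to 0.102 in hearts. Other pairs had -0.055 to 0.055 and -0.127 to 0.106. In a group of 2 samples the deviations mirror each other, so these values cannot decide whether the numbers pair samples. Between the tissues, 6 same-number pairs at postnatal day 1 and 4 weeks had correlations of -0.059 to 0.091 and 12 other pairs -0.112 to 0.136, a check chosen after seeing the data. With the block across tissues, 7 members differed at postnatal day 1, where P4ha2 and P4ha3 lost their calls (adjusted p of 0.0560 and 0.0700), and 2 differed in their change to 4 weeks. With the number as a block the counts were 5, 4, 1 and 2 for fibroblasts at 4 weeks against postnatal day 1, 1 year against 14 weeks, 1.5 years against 1 year and 1.5 years against 14 weeks, and 1 for hearts at 1 year against 14 weeks and at 1.5 years against 14 weeks, with 7 for any age, 5 and 2 for hearts at 4 and 14 weeks against the age before, and 5 at 1.5 years against postnatal day 1. No paired analysis was possible for fibroblasts at 14 weeks against 4 weeks, 1.5 years against postnatal day 1 or any age because the younger ages share no replicate numbers with the older ones. Leaving out 1 sample at a time gave for fibroblasts 6 to 8 members for any age, 4 to 7, 0 to 3, 0 to 3 and 0 to 0 for the successive steps, 0 to 1 for 1.5 years against 14 weeks and 3 to 6 for 1.5 years against postnatal day 1. For hearts these were 6 to 8, 4 to 5, 0 to 4, 0 to 3, 1 to 2, 0 to 3 and 4 to 5. Relative to Col1a1 they were 6 to 8, 4 to 7 and 8 to 9 in fibroblasts and 6 to 8, 7 to 7 and 8 to 9 in hearts, for the difference between tissues 2 to 4 and 1 to 2, and for fibroblasts against hearts 7 to 8 and 8 to 9 by level and 8 to 8 and 8 to 9 relative to Col1a1. Directions reversed for Serpinh1 of hearts at 1.5 years against postnatal day 1 with library size alone (log2 -0.51), for the share of P4ha2 in fibroblasts at 1.5 years without replicate 5 (range without 1 sample -5.59 to 3.74 points), for the share of P4ha2 in hearts at 4 weeks with counts not divided by length (-3.59 points) or without neonatal replicate 3 (range -3.11 to 6.02 points), and for the share of Plod3 in hearts at 1.5 years without replicate 2 (range -3.59 to 0.414 points), none of them called as reported. With 2 or 3 samples a group and P4ha3 of hearts at 0 to 29 counts after birth, its size of change is limited by depth.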

Other observations

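General chaperones of the endoplasmic reticulum, which help any secreted protein to fold, had 15 genes tested, and none was called lower against postnatal day 1. In fibroblasts 6 rose at 4 weeks (median log2 0.53, against 15.5% of all genes called and 9.28% higher) and 8 were higher at 1.5 years (median 0.70, against 16.3% and 9.86%). In whole hearts 13 rose at 4 weeks (median 0.88, against 18.2% of all genes called and 12.1% higher) and 7 were higher at 1.5 years (median 0.65, against 31.8% and 15.6%), where the median over all genes was -0.09 and -0.15. Between later ages 1 fell in fibroblasts from 4 to 14 weeks (median -0.49, against 2.08% of all genes lower). None was called there from 14 weeks to 1 year (median 0.66, against 1.78% of all genes called). In fibroblasts of 1.5 years 2 were higher than at 14 weeks (median 0.51, against 1.91% of all genes higher). Against 1 year 1 was higher (median -0.0003, against 0.096%). In hearts 1 fell from 14 weeks to 1 year (median -0.46, against 0.583%) and 3 at 1.5 years against 14 weeks (median -0.39, against 7.86%). Hspa5, the chaperone BiP, went from 652 ± 89.1 CPM (SD, n = 3) in neonatal fibroblasts to 932 ± 164 CPM (n = 3) at 4 weeks, which was not called (edgeR adjusted p = 0.121), and to 1511 ± 437 CPM (n = 2) at 1.5 years (log2 1.21, edgeR adjusted p = 0.00239). In whole hearts it went from 185 ± 9.61 to 548 ± 110 CPM at 4 weeks (n = 3 each, log2 1.57, edgeR adjusted p = 1.28e-05). Sdf2l1, a partner of BiP, rose from 5.50 ± 1.71 to 16.6 ± 5.35 CPM in fibroblasts at 4 weeks (log2 1.59, edgeR adjusted p = 0.0117).

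Genes induced by low oxygen, among which P4ha1, P4ha2 and Plod2 are often counted, did not all move one way. In fibroblasts 6 of 16 tested rose and 1 fell at 4 weeks (median 0.20, against 15.5% of all genes called, 9.28% higher and 6.2% lower). At 1.5 years 7 were higher and 1 lower (median 0.39, against 16.3%, 9.86% higher and 6.46% lower). In whole hearts 4 of 17 rose and 3 fell at 4 weeks (median 0.30, against 18.2% of all genes called, 12.1% higher and 6.1% lower). At 1.5 years 5 were higher and 1 lower (median 0.30, against 31.8%, 15.6% higher and 16.3% lower), a count of calls near that share. Vegfa, the endothelial growth factor, rose in both tissues at 4 weeks (log2 0.95 in fibroblasts and 0.90 in hearts, edgeR adjusted p = 0.000209 and 0.0213). Egln3, a hydroxylase that acts on the hypoxia-inducible factors, fell in fibroblasts (log2 -1.39, edgeR adjusted p = 0.00832) and rose in hearts (log2 2.43, edgeR adjusted p = 1.13e-07), and the difference between the tissues was not tested for it here.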
